A study of Mus musculus with 6 samples.

Results

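The glandular kallikreins are secreted serine proteases whose mouse genes lie side by side on chromosome 7. Klk1, the tissue kallikrein, cuts kininogens to release kinins, short peptides that act on blood vessels and smooth muscle. The Klk1b genes are rodent copies of it, several of which encode proteins that bind or process growth factors, and the family is known for strong, androgen-dependent expression in the salivary gland. Described here are 10 of these genes, taken by symbol from 21718 genes in the count table: Klk1, Klk1b1, Klk1b3, Klk1b4, Klk1b5, Klk1b16, Klk1b22, Klk1b24, Klk1b26 and Klk1b27. The table held 4 more coding genes of the cluster that are not on this list (Klk1b8, Klk1b9, Klk1b11 and Klk1b21) and 1 pseudogene (Klk1b14-ps), and their values are given for completeness. The genes were chosen by symbol and selected on their lower counts in the F10-deleted group of this same comparison, with those values already known, so the differences between the groups below are a description and carry no test for the cluster genes.

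RNA came from 6 samples of castration-resistant prostate tumour in a genetically engineered mouse model, whose tumour genotype both groups share. All recipients were irradiated with 900 rad and given donor marrow at 6 weeks of age, castrated at 8 weeks, and their tumours were taken 16 weeks after castration. The donor marrow was F10fl/fl without Cre in 3 samples (F10-intact 1, 3 and 4) and F10fl/fl; LysM-Cre+ in 3 samples (F10-deleted 1, 3 and 4). F10 encodes coagulation factor X, and LysM-Cre is active in myeloid cells, so the tumour cells, the stroma and any blood cells left from the host keep their F10 alleles in both groups. The labels do not state whether the samples are different animals, so the p-values below measure only the spread between these samples, which may be technical.

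Total counts were between 9237308 and 11821588 per sample. F10-intact sample 4 stood apart from the other 5 on the first principal component, which held 47.6% of the variance, and it had the highest share of mitochondrial counts, 5.75% against 2.45% to 4.58% elsewhere. It was also the sample with the highest level of all 14 coding cluster genes, so values without it are given below. General epithelial markers were present in both groups. Epcam stood at 1187 ± 170 CPM (counts scaled to library size with TMM factors) with F10-intact marrow and 1175 ± 159.5 CPM with F10-deleted marrow. Krt8 stood at 1137 ± 76.5 and 1137 ± 149.5 CPM (SD, n = 3 each). These markers cannot tell prostate from other glandular epithelium, such as seminal vesicle, whose genes are given below.

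The cluster as a whole was lower in every F10-deleted sample than in any F10-intact sample. The 14 coding genes together had 127, 334 and 670 CPM in F10-intact samples 1, 3 and 4, and 29.4, 34.5 and 66.0 CPM in F10-deleted samples 1, 3 and 4. The means were 377 ± 274 and 43.3 ± 19.8 CPM (SD, n = 3 each), an 8.71-fold difference and -3.12 on the log2 scale, which was -2.42 without F10-intact sample 4. The 10 listed genes alone summed to 315 ± 227 and 30.8 ± 16.1 CPM, a 10.2-fold difference. The sum does not depend on how counted reads were divided among similar copies, but whether reads that match several copies were counted is not stated in the labels. Between samples of the same number in the labels, the sum of 14 was 4.33, 9.68 and 10.15 times higher in the F10-intact sample for numbers 1, 3 and 4. In bulk tissue, fewer cells that make these transcripts and less transcript per cell cannot be told apart.

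All 10 listed genes had log2 fold changes under 0 (F10-deleted over F10-intact), from -1.61 for Klk1b24 to -4.00 for Klk1b16, with a median of -2.38. Among the 15963 genes tested, 52.7% were under 0, the median was -0.02, and 0.276% were at -2 or below, where 7 of the 10 listed genes lay. The groups did not overlap for 7 of the 10, and for 5 of the 7 that were tested. Of all genes tested, 7.67% were lower without overlap and 8.99% were higher without overlap. Nothing is read from these counts, since this same contrast chose the genes. The filter on low counts was passed by 7 of the 10, and Klk1b1, Klk1b4 and Klk1b22 fell below it, so their fold changes come from the same fit without a filter. The counts out of 10 include these genes, while the shares of all genes are over tested genes only. Over all genes, edgeR's quasi-likelihood test called 7 genes higher and 0 lower in the F10-deleted group, which is 0.0439% of genes tested. At an unadjusted p under 0.05 it gave 756 lower (4.74%) and 981 higher (6.15%), and DESeq2 called 123 lower (0.722%) and 370 higher (2.17%). With the replicate number as a block the calls were 2 in all, or 0.0125%, of which 1 was lower (0.00626%), Klk1b26 at a blocked log2 fold change of -3.61. That gene was chosen on this contrast, so its call is given as a count only and supports nothing.

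**Figure D1:**
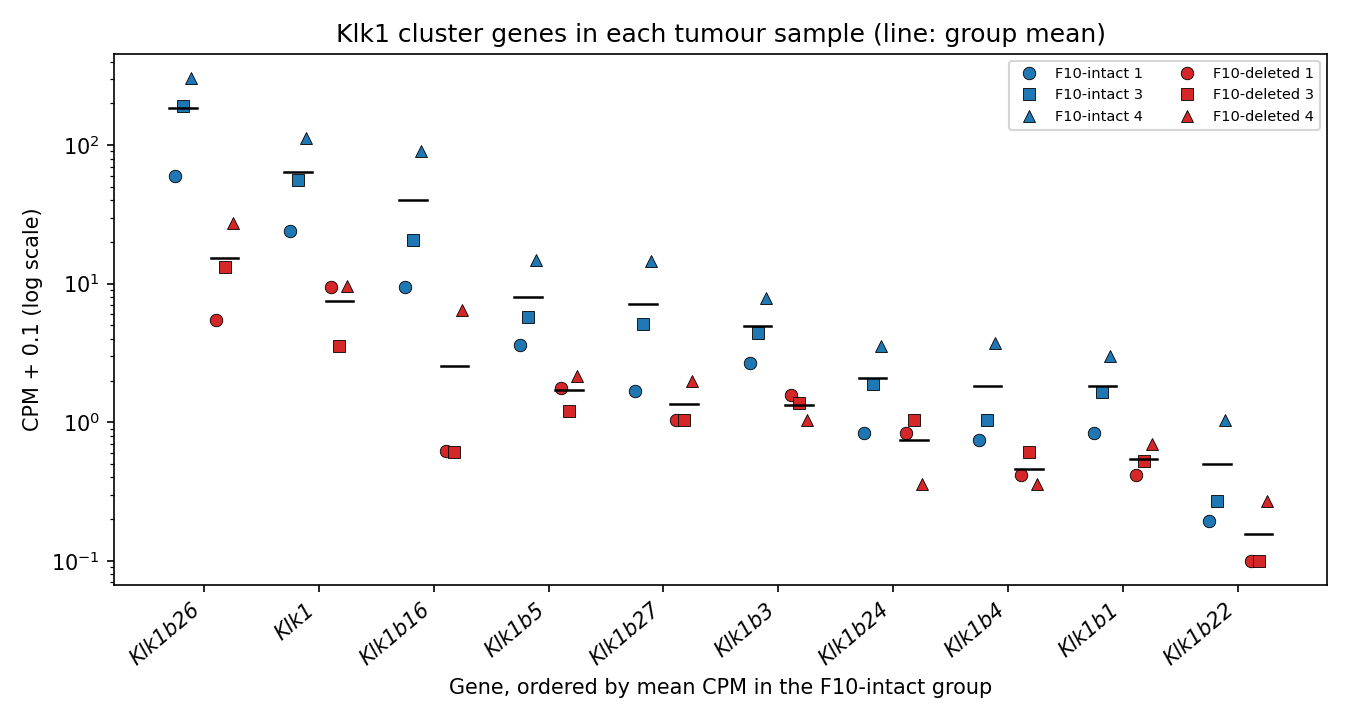
CPM plus 0.1 on a log axis for the 10 listed genes in each of the 6 samples, with circles, squares and triangles for samples numbered 1, 3 and 4, blue for F10-intact, red for F10-deleted and a line at each group mean. For 7 genes every F10-intact point lies above every F10-deleted point, while Klk1b27, Klk1b24 and Klk1b22 overlap.

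Klk1b26 had the most reads of the cluster in 5 of the 6 samples. It encodes a protease also named PRECE-2 and epidermal growth factor binding protein 2, and lies on chromosome 7 from 44012168 to 44016968 on the plus strand of GRCm38, as annotated in GENCODE M21. It had 59.3, 192 and 304 CPM in F10-intact samples 1, 3 and 4 and 5.36, 13.1 and 27.5 CPM in F10-deleted samples 1, 3 and 4. The lowest F10-intact sample was above the highest F10-deleted sample, and sample 1 was the lowest and sample 4 the highest of each group. The group means were 185 ± 123 and 15.3 ± 11.2 CPM (SD, n = 3 each), 12.1-fold apart, with a log2 fold change of -3.59. The same-numbered samples differed 11.1-, 14.6- and 11.1-fold, the narrowest such range among the 3 most abundant listed genes. The log2 fold change was -3.03 without F10-intact sample 4 and lay between -4.31 and -3.03 whichever sample was left out.

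Klk1 itself (chromosome 7, 44225360 to 44229618, plus strand) closes the cluster at its distal end. It had 23.8, 55.5 and 112 CPM in F10-intact samples 1, 3 and 4 and 9.35, 3.47 and 9.47 CPM in F10-deleted samples 1, 3 and 4. The groups did not overlap, and F10-deleted sample 3 was the lowest of the 6. The means of 63.8 ± 44.8 and 7.43 ± 3.43 CPM were 8.59-fold apart. The same-numbered ratio was 2.55 for number 1 against 16.0 and 11.85 for numbers 3 and 4. This ratio was thus smallest for the number where F10-intact was lowest. The log2 fold change was -3.11, and -2.42 without F10-intact sample 4.

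Klk1b16 had the widest gap of the 10 and the widest spread. This gene (chromosome 7, 44136767 to 44141610, plus strand) had 9.32, 20.7 and 90.6 CPM in F10-intact samples 1, 3 and 4 against 0.525, 0.508 and 6.31 CPM in the F10-deleted samples. In counts, F10-deleted samples 1 and 3 had 5 and 6 reads and F10-deleted sample 4 had 74. The means were 40.2 ± 44.0 and 2.45 ± 3.35 CPM, 16.4-fold apart. Its size rested on single samples: the log2 fold change was -4.00 with all 6, -2.59 when F10-intact sample 4 was dropped and -6.25 when F10-deleted sample 4 was dropped.

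Of the genes at middle levels, Klk1b5 and Klk1b3 did not overlap between the groups and Klk1b27 came close. Klk1b5 (44215945 to 44220703) had 3.51, 5.66 and 14.6 CPM in the F10-intact samples against 1.68, 1.10 and 2.05 CPM in the F10-deleted samples. Klk1b3 (44198191 to 44202352), a growth-factor-processing protease, had 2.58, 4.29 and 7.78 against 1.47, 1.27 and 0.938 CPM. Klk1b27 (44052290 to 44056712) had 1.57, 5.06 and 14.4 against 0.945, 0.930 and 1.88 CPM, where F10-intact sample 1 lay below F10-deleted sample 4. The log2 fold changes were -2.29, -1.99 and -2.46 in that order, and -1.51, -1.49 and -1.40 without F10-intact sample 4.

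The remaining 4 listed genes were scarce, and their counts limit what can be seen. Klk1b24 (44188236 to 44192455) had 8, 21 and 33 reads with F10-intact marrow against 7, 11 and 3 with F10-deleted marrow, and the groups overlapped. Klk1b1 (43966751 to 43971318) had 8, 18 and 28 against 3, 5 and 7 counts. Klk1b4 (44207435 to 44211754) had 7, 11 and 35 against 3, 6 and 3 counts. Neither Klk1b1 nor Klk1b4 overlapped, but the nearest samples of the groups had 8 against 7 counts and 7 against 6 counts. Klk1b22 (44112673 to 44116922), epidermal growth factor binding protein type A, had 1, 2 and 9 against 0, 0 and 2 counts. Pooled over the groups, Klk1b22 was 6.17 times higher in F10-intact samples, with an exact 95% counting interval of 1.37 to 56.8. For Klk1b24 the pooled ratio was 3.04 (1.83 to 5.25), for Klk1b1 3.70 (2.06 to 7.07) and for Klk1b4 4.54 (2.40 to 9.34). These intervals cover counting error only and say nothing of the spread between samples. Without F10-intact sample 4 the log2 fold changes of Klk1b24, Klk1b1, Klk1b4 and Klk1b22 were -0.99, -1.33, -1.12 and -1.02, against -1.61, -1.89, -2.21 and -2.47 with all 6 samples.

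**Figure D2:**
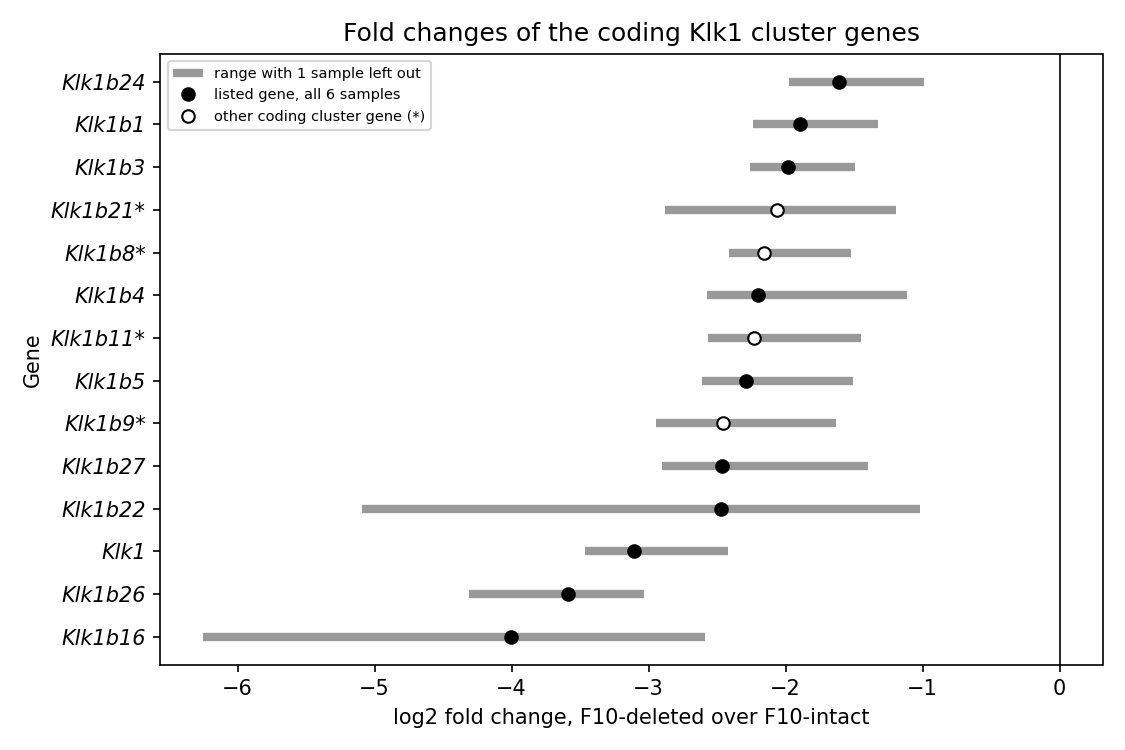
log2 fold change (F10-deleted over F10-intact, x axis) of the 14 coding cluster genes, with filled points for the 10 listed genes, open points for the other 4, and grey bars for the range when each sample in turn is left out. No bar reaches 0, the widest bars are those of Klk1b16 (-6.25 to -2.59) and Klk1b22 (-5.09 to -1.02), and that of Klk1b26 runs from -4.31 to -3.03.

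The 4 coding genes off the list had the same direction. Klk1b11 (43995877 to 43999875) had 15.0, 28.5 and 68.9 CPM in the F10-intact samples against 5.36, 8.63 and 9.89 CPM in the F10-deleted samples. Klk1b9 (43976061 to 43980376), epidermal growth factor binding protein type C, had 8.49, 16.5 and 42.0 against 2.73, 3.05 and 6.31 CPM. Klk1b8 had 15, 15 and 35 against 6, 6 and 3 counts, and Klk1b21 had 1, 4 and 8 against 0, 1 and 2 counts. Their log2 fold changes were -2.23, -2.46, -2.16 and -2.06, and -1.45, -1.63, -1.52 and -1.20 without F10-intact sample 4.

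Levels of different genes can be set side by side only per length, here as CPM per kilobase of annotated exon. In the F10-intact group Klk1b26 led at 134 ± 88.4 CPM per kb, followed by Klk1 at 59.3 ± 41.6, Klk1b11 at 43.5 ± 32.5, Klk1b16 at 29.0 ± 31.7 and Klk1b9 at 25.7 ± 20.1 (SD, n = 3). Each of these means differed from the next in the order by less than the larger SD of the pair. Within a sample the order was firmer: Klk1b26 was above Klk1, and Klk1 above Klk1b11, in all 3 F10-intact samples. The 3 genes Klk1b27, Klk1b5 and Klk1b3 followed at 7.89, 5.70 and 5.49 CPM per kb, and Klk1b24, Klk1b4 and Klk1b1 at 2.26, 2.07 and 1.99, each trio being closer together than its spread. Klk1b22 was lowest of the listed genes at 0.467 ± 0.543 CPM per kb. In the F10-deleted group the top 2 were Klk1b26 at 11.05 ± 8.09 and Klk1b11 at 9.22 ± 2.71 CPM per kb, then Klk1 at 6.90 ± 3.18. There F10-deleted sample 1 had Klk1 first, at 8.68 CPM per kb, with Klk1b11 at 6.21 and Klk1b26 at 3.86. In F10-deleted sample 3 Klk1b11 was also above Klk1b26, at 9.998 against 9.46, so Klk1b26 led in 1 of these 3 samples. The annotated exons of Klk1b26, Klk1b16 and Klk1b5 add up to 1386, 1387 and 1391 bases, against 839 to 889 for the other listed Klk1b genes, so the per-length levels of these 3 depend on that longer model.

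The make-up of the cluster's reads differed as well as their number. Klk1b26 made up 46.6%, 57.4% and 45.4% of the counts of the 14 coding genes in F10-intact samples 1, 3 and 4. It made up 18.2% (exact 95% binomial interval 13.9% to 23.2%), 38.0% (33.3% to 42.9%) and 41.6% (38.1% to 45.2%) in F10-deleted samples 1, 3 and 4. The F10-deleted shares were all lower, but the upper end of the interval in F10-deleted sample 4 reached past the lower end in F10-intact sample 4 (44.2% to 46.6%). These intervals cover counting error only, and samples of a group differed by more than that. Klk1b11 went the other way, with 11.81%, 8.54% and 10.3% in the F10-intact samples against 18.2%, 25.0% and 15.0% in the F10-deleted samples. Klk1b16 held 7.32%, 6.18% and 13.5% against 1.79%, 1.47% and 9.56%, with F10-deleted sample 4 inside the F10-intact range. Klk1 took 31.8% of the counts in F10-deleted sample 1 and 10.05% in F10-deleted sample 3, on either side of the 16.6% to 18.7% of the F10-intact samples.

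**Figure D3:**
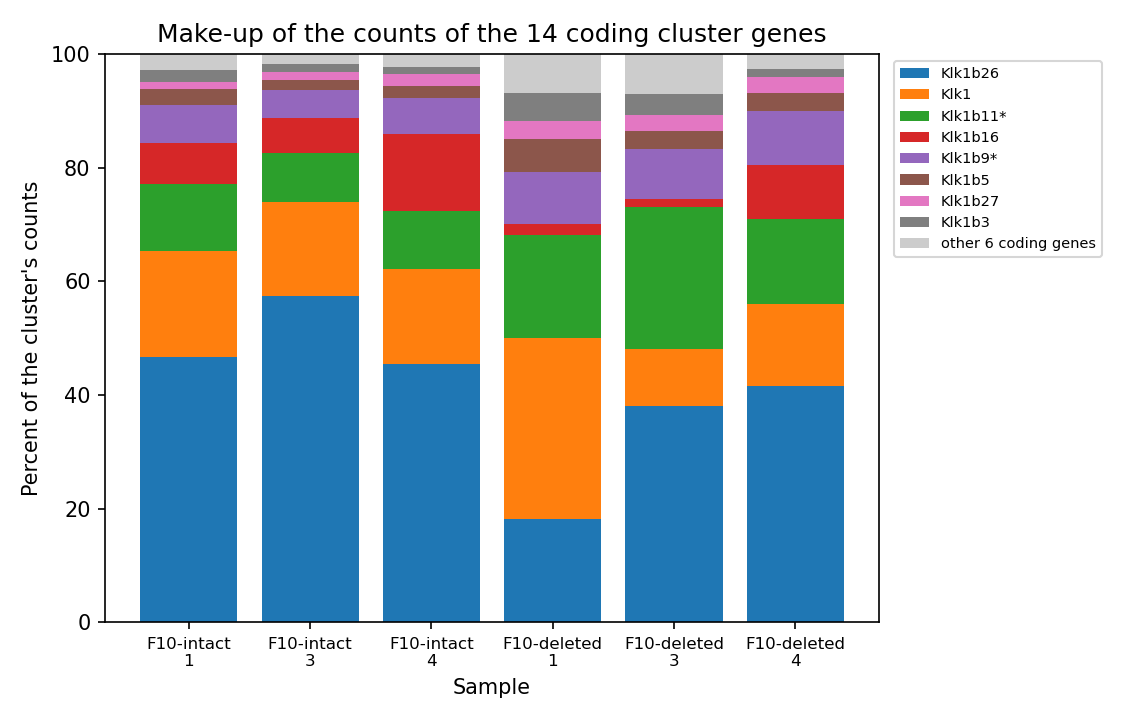
Percent of the counts of the 14 coding cluster genes (y axis, 0 to 100) taken by each of 8 genes, and by the 6 least abundant genes together, in the 6 samples, with an asterisk on genes that are not on the list of 10. Klk1b26 is the largest block in all 3 F10-intact samples and in F10-deleted samples 3 and 4, while Klk1 is the largest in F10-deleted sample 1.

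These genes are close copies, which bears on how their reads can be told apart. Coding sequences of the 10 listed genes were 79.6% to 95.2% identical over 45 pairs, with a median of 85.7%. The closest pair was Klk1 and Klk1b5 at 95.2%, followed by Klk1b24 and Klk1b27 at 93.6% and Klk1b16 and Klk1b26 at 92.8%. Reads were 120 bases long, and only Klk1 and Klk1b5 among the 91 pairs of coding genes shared an exact run of at least that length, 145 bases. Of all 120-base windows in the annotated transcript, 96.9% of those in Klk1 and 98.0% of those in Klk1b5 occurred in no other gene's transcript, and for the other 12 coding genes the figure was 100%. With at least 3 differences required from every other cluster transcript, the share was 73.3% for Klk1, 84.4% for Klk1b5 and 88.9% to 98.8% for the other 12. Reads that carry sequence differences from the reference strain or sequencing errors, and intron reads, are not covered by this count. Klk1b26 and Klk1b16 had a median of 9 differences per window to the nearest other cluster transcript.

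**Figure D4:**
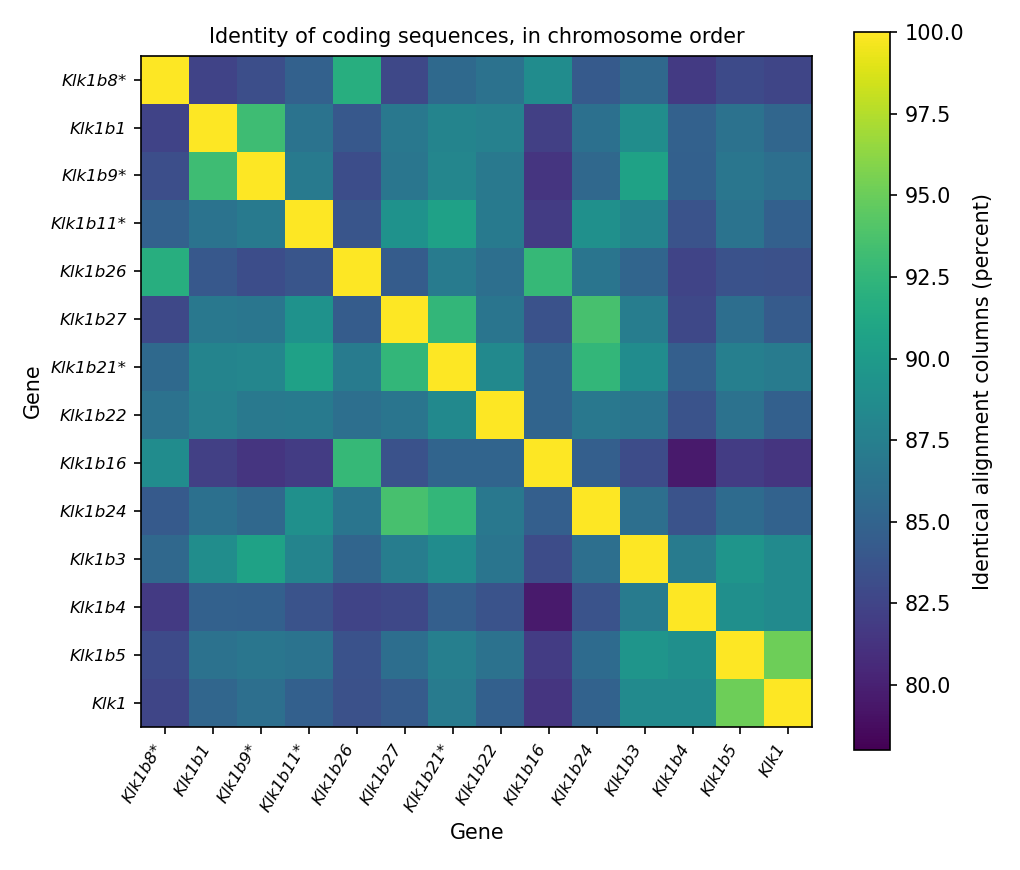
Percent of identical alignment columns between the coding sequences of each pair of the 14 coding genes, in chromosome order on both axes, with an asterisk on genes that are not on the list of 10. The brightest cell off the diagonal is Klk1 with Klk1b5 at 95.2%, and the lowest pair of the listed genes is at 79.6%.

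The genes also share letters near their start sites. Since the members are copies of one another, their matches are not independent of each other. Any part of these letters in the lower levels was not tested. Promoter sequences of 300 bases, from 250 before to 50 after the start, were available from RefSeq (GRCm38.p6) for all 10 listed genes and all 14 coding genes. The hexamer TTTAAA, a palindrome, was present in 9 of the 10 listed genes and 13 of the 14 coding genes, against 13.2% of 32851 promoters in the table. Klk1 was the gene without a match. TATAAA, searched on both strands, was in 0 of the 14 promoters and in 13.6% of all. The stretches below are 30 bases each on the plus strand, 5′ to 3′, with TTTAAA in capitals. They show the form in the most abundant listed gene and in Klk1b16 first, then the form in 4 less abundant genes.
Klk1b26 (chr7:44012634-44012663): atggagagaatgagggtaTTTAAAatctcc
Klk1b16 (chr7:44137233-44137262): gtggggagaactcaggtaTTTAAAatctcc
Klk1b27 (chr7:44052255-44052284): atggggagaatgagcgttTTTAAAgtctcc
Klk1b5 (chr7:44216414-44216443): tgggagagaatgagggttTTTAAAgtctcc
Klk1b3 (chr7:44198160-44198189): gggaggagtataagggttTTTAAAgtctcc
Klk1b24 (chr7:44188187-44188216): tgtggggagaatgagggtTTTAAAgtctcc

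In Klk1b26 and Klk1b16 the hexamer is preceded by TA, giving the longer motif TATTTAAA, and is followed by A. Among the other coding genes this form was found only in Klk1b11, and TATTTAAA was in 1.81% of all promoters, counted on both strands and as part of the TTTAAA matches. The remaining listed genes with the hexamer have G after it. The 3 genes with TATTTAAA ranked 1, 3 and 4 by mean CPM per kb in the F10-intact group. Klk1, which lacks the hexamer, ranked above Klk1b11 and Klk1b16, and a link between motif and level was not tested. The rank of Klk1b16 rested on F10-intact sample 4, since Klk1b9 was above it in F10-intact sample 1 (9.76 against 6.72 CPM per kb) and sample 3 (19.0 against 14.9). Klk1b4 has the same 30 bases as Klk1b24, and Klk1b5 and Klk1b22 are identical at 29 of 30. In the 9 listed genes the hexamer starts at -48 to -13 relative to the RefSeq start. In GENCODE M21 the models of Klk1b26, Klk1b16 and Klk1b5 start further upstream, so the stretch lies inside those gene models. The canonical androgen response element palindrome was in 0 of the 14 windows and in 0.00913% of all promoters, and its 6-base arm AGAACA, on either strand, was in 2 of the 14 (Klk1b3 and Klk1b24) and in 19.0% of all. A missing match says only that these letters are not in this window.

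Across the 6 samples the listed genes varied together. Pearson's r of log2(CPM + 0.5) over the 21 pairs of the 7 genes past the filter had a median of 0.913 and ranged from 0.668 to 0.978. After the group means were removed the median was 0.780 and the range 0.265 to 0.959. These are descriptions over 6 libraries that share a table and a choice of genes. The named genes whose levels most resembled the mean of the 7, by Pearson's r over the 6 samples, were Deptor (0.997), Gpr83 (0.996), Soat1 (0.993), Tmem47 (0.992), Nat1 (0.992), Rnf32 (0.991), Apmap (0.990), Acrbp (0.988), Ccdc160 (0.986) and Fam227a (0.986). Of 14060 genes compared, 3.53% had an r of 0.9 or more. Deptor, an inhibitor of the mTOR kinase, had 97.2, 116 and 155 CPM in the F10-intact samples against 73.5, 74.5 and 84.3 CPM in the F10-deleted samples. Gpr83, a G protein-coupled receptor, had 12.7, 28.8 and 50.1 against 6.51, 5.67 and 8.44 CPM.

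Genes that lie beyond the cluster were next examined. Within 200000 bases on either side, 11 non-kallikrein genes had counts, and 7 passed the filter, 0 of them called with edgeR. All 7 lie past the distal end of the cluster, and no gene before its start was tested. The nearest tested gene, 1700028J19Rik, lies just past Klk1 on the minus strand (44229811 to 44246695). It had 28, 62 and 103 reads with F10-intact marrow against 29, 17 and 21 with F10-deleted marrow (log2 fold change -1.57 ± 0.56 SE, edgeR adjusted p = 0.363). Its neighbour 2410002F23Rik stood at 250.1 ± 110.2 and 133.5 ± 3.12 CPM (SD, n = 3 each, log2 fold change -0.91 ± 0.28, edgeR adjusted p = 0.301). Further out, Clec11a was at -0.61 ± 0.37 and Shank1 at 0.68 ± 0.42 (edgeR adjusted p = 0.618 and 0.625). The rest of the 7 were Gm28496 at -1.195 ± 0.59, Syt3 at -0.66 ± 0.47 and Lrrc4b at -0.06 ± 1.11, so only Shank1 was above 0. Gm10109, an antisense gene that overlaps Klk1, had 7, 1 and 22 against 2, 3 and 6 counts, and since the strand setting of the counting is not given in the sources used here, its reads and those of Klk1 cannot be fully separated.

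Genes that act with the kallikreins were taken from lists by role, and the edgeR test over all 15963 genes applies to them. Across all lists together, 78 different genes were tested, 45 of them with log2 fold changes under 0 (52.7% of all genes tested), and 0 were called. At an unadjusted p under 0.05 there were 15 lower and 5 higher, beside 4.74% and 6.15% of all genes tested. DESeq2 called 8, beside 0.722% of its 17037 genes lower and 2.17% higher, namely Serpina3n higher and Sbp, Pbsn, Hoxb13, Azgp1, Spint2, Smr2 and Smgc lower. Of 12 other tissue kallikreins, 2 were in the table, and Klk8 was tested at 1.997 ± 1.03 and 1.48 ± 0.722 CPM (SD, n = 3 each, log2 fold change -0.45 ± 0.52, edgeR adjusted p = 0.817). Klk13 was below the filter, with 24 reads in F10-intact sample 1 and 0 to 2 elsewhere. The other 10 were not analysed here.

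The kinin pathway, which carries the signal that Klk1 starts, had 12 of 18 genes tested, 8 of them under 0, with a list median of -0.09. Ace, the kinin-degrading converting enzyme, had 178, 181 and 162 CPM in the F10-intact samples against 141, 92.5 and 73.0 CPM in the F10-deleted samples (log2 fold change -0.76 ± 0.23, edgeR adjusted p = 0.294). Its groups did not overlap. Prcp, a carboxypeptidase that also cuts kinins, was at -0.66 ± 0.22 and Bdkrb2, the constitutive kinin receptor, at 0.86 ± 0.45 (edgeR adjusted p = 0.339 and 0.54). Kng1 and Kng2, the kininogens that Klk1 cleaves, were below the filter, at 0 to 0.105 and 0 to 0.735 CPM.

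The protease inhibitors went both ways, with 5 of 11 tested genes under 0 and a median of 0.35. Serpina3n, a serpin of the antichymotrypsin family, had 8.40, 6.86 and 8.92 CPM in the F10-intact samples against 15.9, 24.4 and 18.7 CPM in the F10-deleted samples. Its groups did not overlap, and its log2 fold change was 1.29 ± 0.23 (edgeR adjusted p = 0.103). Spint2, a membrane Kunitz inhibitor, was at -0.71 ± 0.20 and Spink5, a Kazal inhibitor of kallikreins, at -4.26 ± 1.38 (edgeR adjusted p = 0.252 and 0.339). The value of Spink5 rested on F10-intact sample 4, with 155 CPM there against 12.8 and 5.91 CPM in F10-intact samples 1 and 3.

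Among substrates and partners of the family, 4 of 12 tested genes were under 0, with a median of 0.11. Agt, angiotensinogen, was at a log2 fold change of -1.26 ± 0.38, Egf at -0.94 ± 0.44 and Ngfr, the low-affinity neurotrophin receptor, at 0.90 ± 0.43 (edgeR adjusted p = 0.291, 0.509 and 0.51). Egf had 31.0, 82.3 and 124 CPM in the F10-intact samples, and 40.7, 47.2 and 35.1 CPM in the F10-deleted samples, so its groups overlapped. Ren1, the renin gene, was below the filter, with 0 to 0.185 CPM.

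Androgen-responsive prostate genes had 15 of 21 tested members under 0 and a median of -0.32. Sbp, a spermine-binding secretory protein, had 1038, 2641 and 3107 CPM in the F10-intact samples against 211, 274 and 460 CPM in the F10-deleted samples, without overlap (log2 fold change -2.84 ± 0.48, edgeR adjusted p = 0.0974). Pbsn, probasin, had 37.2, 46.0 and 62.6 against 4.52, 13.5 and 20.6 CPM, without overlap (-1.91 ± 0.49, edgeR adjusted p = 0.233). Fkbp5, a steroid-hormone-responsive chaperone gene, was at 14.5 ± 1.18 and 16.1 ± 1.83 CPM (0.15 ± 0.18, edgeR adjusted p = 0.826). Tmprss2, an androgen-regulated membrane protease, was at 472.5 ± 84.3 and 598 ± 181 CPM (0.34 ± 0.24, edgeR adjusted p = 0.667). Without F10-intact sample 1, edgeR called Sbp (log2 fold change -3.16, adjusted p = 0.0346). That fit called 16 genes lower and 56 higher over all genes tested. With any other single sample left out, 0 genes of the related lists were called.

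**Figure D5:**
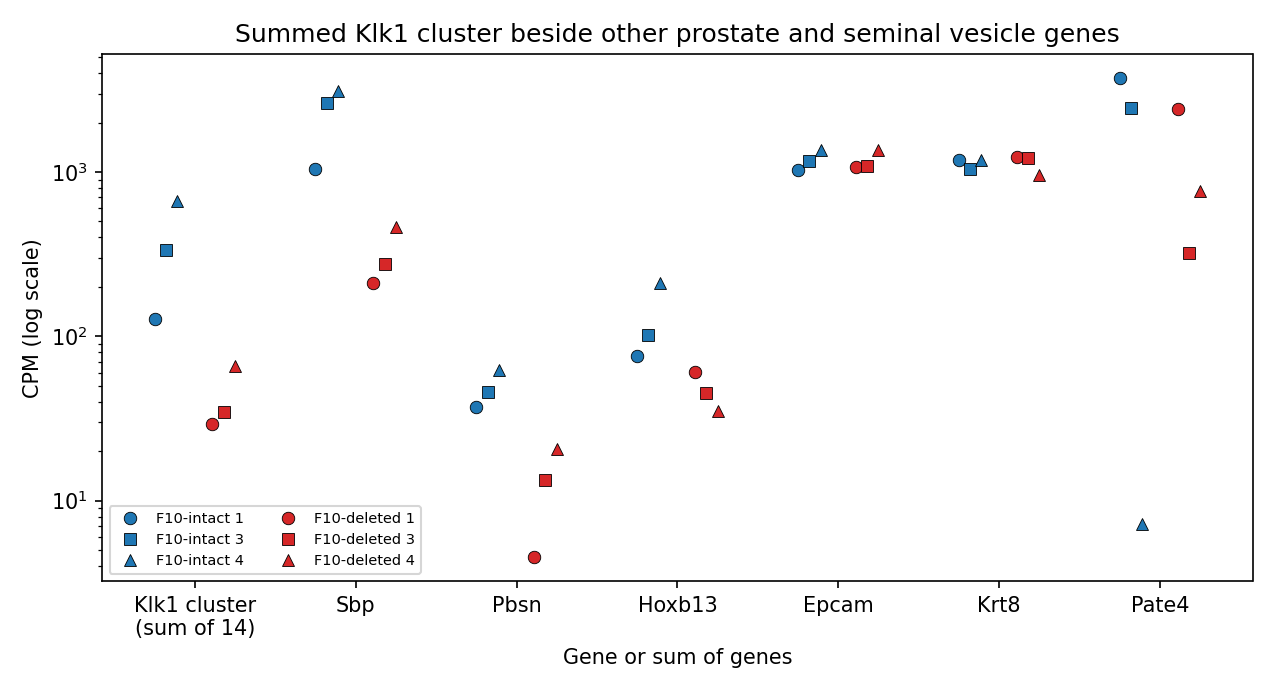
CPM on a log axis for the sum of the 14 coding cluster genes and for Sbp, Pbsn, Hoxb13, Epcam, Krt8 and Pate4 in the 6 samples, with the symbols and colours of the plot by sample. The cluster sum, Sbp, Pbsn and Hoxb13 have no overlap between the groups, Epcam and Krt8 do, and Pate4 ranges from 7.26 to 3736 CPM within the F10-intact group.

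Markers of cell types that could carry these transcripts were set beside the cluster. Secretory luminal markers had 9 of 12 members under 0 and a median of -0.22, and their summed level was 8841 to 10290 CPM with F10-intact marrow and 8556 to 9367 CPM with F10-deleted marrow. In that list Hoxb13, a prostate homeobox factor, was at -1.46 ± 0.40 and Psca, a surface antigen, at 1.93 ± 0.63 (edgeR adjusted p = 0.253 and 0.336). Salivary gland markers had 8 of 15 genes with a row and 6 tested, 4 of them under 0. Their sum was 60.5 to 178 CPM in the F10-intact samples against 59.0 to 66.7 CPM in the F10-deleted samples, and 1 of the 8, Mucl2, was at 0 in every sample. Smr2 and Smgc, salivary secretory genes, had log2 fold changes of -2.88 ± 0.70 and -1.93 ± 0.63 (edgeR adjusted p = 0.199 and 0.327). Prol1 of the same list, below the filter and so not tested, went the other way. It had 1, 1 and 4 reads in F10-intact samples 1, 3 and 4 against 36, 0 and 47 in F10-deleted samples 1, 3 and 4. The part of such cells in the cluster's difference was not tested.

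Seminal vesicle genes varied widely between samples of the same group. Of 9 markers, 6 were tested, 3 under 0 and 3 above, with 0 called. Svs6 was at -0.95 ± 1.26 and Svs4 at 0.78 ± 1.42 (SE, lowest edgeR adjusted p of the list 0.847). Pate4, the most abundant, had 3736, 2450 and 7.26 CPM in F10-intact samples 1, 3 and 4 and 2404, 321 and 763 CPM in F10-deleted samples 1, 3 and 4. F10-intact sample 4, the highest for the cluster, was thus the lowest for Pate4. Of 12 pancreatic acinar markers 3 were tested: Pnlip at -1.25 ± 0.78, Prss2 at -1.18 ± 0.76 and Cela1 at 1.21 ± 0.89 (lowest edgeR adjusted p 0.626). The kidney list had 3 of 8 genes with counts, led by Umod with 2, 7 and 27 reads against 2, 3 and 6. The steroidogenic list was led by Star at 1.78 ± 0.648 and 2.30 ± 0.674 CPM (edgeR adjusted p = 0.819). The mitochondrial share was highest in sample 4 of each group, as was the cluster sum, and its part was not tested.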

How the data were processed

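Stranded poly-A libraries of 6 tumour samples were sequenced as single 120-base reads, and what the authors deposited are raw counts per Ensembl gene, per the labels' protocols and the values. The submitters' processing notes name STAR 2.7.10a, GRCm38 and DESeq2. For the counting step, the program, strand setting and gene models were not given in the sources used here. GENCODE M21 gave symbols for 21605 identifiers, and 113 had none.

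The counts were fitted with edgeR 4.0.16 in R 4.3.3 (quasi-likelihood, robust, TMM, filterByExpr with a minimum count of 10), and p-values were adjusted by Benjamini-Hochberg over all genes tested, with a threshold of 0.05. The cluster genes, lists and tests were chosen with earlier results of these data known. The text names every cluster gene, the genes of each list past the threshold or else the 3 with the smallest p, and the 10 genes of mean CPM of at least 1 most like the cluster; some items are not reported here. Epcam, Krt8, Ren1, Kng1, Kng2, Klk13, Fkbp5, Tmprss2, Umod, Mucl2, Prol1, Azgp1 and the flanking genes were named after their values were seen. The fit was tested on simulated data. It recovered 37 of 100 genes with a true 2-fold change and 91 of 100 with a true 4-fold change, with 13 false calls each time. Many changes of 2-fold size would thus be missed, and some calls would be false.

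Replicate numbers 1, 3 and 4 occur in both groups. Deviations from the group means correlated across genes between same-numbered samples (0.372, 0.14 and 0.186). The numbers were used as a block in an alternative fit only. Whether they mark true pairs was not shown, since the labels name no shared animal, litter or day. The main fit had no block, so its p-values are unpaired. Samples of a group differed beyond sampling noise (chi-square per degree of freedom 22.3 to 77.5). Alternatives were DESeq2 1.42.0, limma-voom (limma 3.58.1), RLE, upper quartile, TMM leaving out the top 50 genes, no filter, a filter of 1 CPM in 3 samples, the replicate block, the cluster as 1 feature, and each sample left out. Coding sequences were aligned with Biopython 1.88, and RefSeq promoters are on GRCm38.p6.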

Additional observations from a re-analysis of the deposited data

How the results depend on the processing

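The 14 coding cluster genes had log2 fold changes under 0 in all 196 values computed under the alternatives, and 15 of these values moved by more than the spread between replicates. The summed cluster was at -3.12 and lay between -3.56 and -2.42 with 1 sample left out, at -2.91 with the replicate block and at -2.78 without Klk1b26, an alternative chosen after seeing the data. The 10 listed genes summed were at -3.16 with the block and between -3.88 and -2.67 with 1 sample left out. The median of the 7 listed genes past the filter was -2.46, and between -2.90 and -1.51 with 1 sample left out, the latter without F10-intact sample 4. Counts of calls over all genes depended on the setting, and the cause was not tested. Genes called higher numbered 7, against 370 with DESeq2, 2 with limma-voom, 2 with at least 1 CPM in 3 samples, 1 with the replicate block and 0 to 56 with 1 sample left out. Genes called lower numbered 0, against 123 with DESeq2, 1 with the block and 0 to 16 with 1 sample left out, the 16 and the 56 both without F10-intact sample 1. Of the genes in the related lists 0 were called, against 8 with DESeq2 and 0 to 1 with 1 sample left out. With the block, 0 genes in the related lists were called. Summing the cluster to 1 feature gives no values for single genes or their median, so these were not run. At counts under 10 a sample, as in Klk1b22 and Klk1b21, depth limits the values.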

Other observations

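The pseudogene Klk1b14-ps, on chromosome 7 from 44071860 to 44076002, had 1, 5 and 2 reads with F10-intact marrow against 1, 0 and 1 with F10-deleted marrow. Its pooled ratio of 4.11 had an exact 95% counting interval of 0.821 to 39.8, which includes 1. F10-deleted sample 4 was the lowest of the 6 for Klk1b3, Klk1b4, Klk1b8 and Klk1b24, although it had the highest Klk1b26, Klk1b16, Klk1b9 and Klk1b11 of its group. In same-numbered samples of number 4 the F10-intact sample was 14.2 times higher for Klk1b4 and 13.4 times higher for Klk1b24, against 2.05 and 1.00 times for number 1.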
